A study of Homo sapiens with 9 samples.

Results

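The genes described here are 35 named members of the ATF4 pathway and the unfolded protein response, listed by name for their roles, without a threshold on their values. They were chosen with earlier results of these data known. Each was read from its brightest probe set annotated to 1 gene, and all 35 passed the filter on dim probe sets, among 12616 genes tested and 19775 genes with a probe set. The cells were A549, a human lung adenocarcinoma line, grown in medium with fetal bovine serum and given no treatment, so no stress agent was applied in any group. In the si-Med23 group 3 samples carried RNA interference oligos A, B and C against MED23, a subunit of Mediator, which carries signals from DNA-bound activators to the transcription machinery. In the si-Elk1 group 3 samples carried oligos A, B and C against ELK1, an ETS transcription factor downstream of ERK. The si-Ctrl group held 3 replicates with a control oligo. The series design describes the knockdown replicates as separate lines, 1 per oligo, so the spread within a knockdown includes differences between oligos. Nothing says that the si-Ctrl samples were separate cultures, so the spread among them may be technical only. The p-values rest on the spread within the 3 groups pooled, and so may understate differences between separate control cultures.

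The unfolded protein response starts from 3 sensors in the membrane of the endoplasmic reticulum (ER), the kinase PERK (encoded by EIF2AK3), the kinase and nuclease IRE1 (ERN1) and the transcription factor precursor ATF6. PERK phosphorylates eIF2alpha, which slows translation in general but favours translation of ATF4, and other kinases reach ATF4 in the same way during amino acid shortage. ATF4 switches on enzymes that make serine, glycine and asparagine and factors such as CHOP (DDIT3). IRE1 splices the mRNA of XBP1, and spliced XBP1 and cleaved ATF6 raise chaperones, disulfide isomerases and the machinery of ER-associated degradation. In some lung cancers the serine pathway is highly active. Arrays of this kind read mRNA, and neither ATF4 translation nor XBP1 splicing was measured.

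Promoter windows of 300 bases, from 250 before to 50 after an annotated transcription start, were taken from RefSeq (GRCh38.p14). They matched 32 of the 35 genes in 43 windows. PSPH, SHMT2 and PDIA3 were not matched. The windows were searched on both strands for the ATF4 and C/EBP element CARE (TGATGNAA), the ER stress element ERSE (CCAAT and CCACG with 9 bases between) and the element UPRE (TGACGTGG). No motif overlapped another in these windows. CARE stood in 6.98% of the windows of the 35 genes, in ASNS, CHAC1 and HERPUD1, and in 3.62% of all 35116 windows. ERSE stood in 20.9%, in HSPA5, HSP90B1, CALR, CANX, PDIA6, CRELD2 and XBP1, and in 0.0769% of all windows. These genes belong to the pathway that the element was defined on, so that share is a description of the list. UPRE stood in 2.33%, in HYOU1, and in 0.729% of all windows.

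The windows below hold CARE in ASNS (an amino acid gene) and CHAC1 (an ATF4 stress effector), and ERSE in chaperone genes HSPA5 and CRELD2. ASNS was the only amino acid gene with a CARE match. Each window is given 5′ to 3′ on the strand of its gene, with the motif in capitals. In ASNS and HSPA5 the motif reads along the gene, 68 and 66 bases before the start. In CHAC1 and CRELD2 it lies on the opposite strand, its far end 209 and 80 bases before the start, and appears as its reverse complement.
ASNS (chr7:97872359-97872658, minus strand): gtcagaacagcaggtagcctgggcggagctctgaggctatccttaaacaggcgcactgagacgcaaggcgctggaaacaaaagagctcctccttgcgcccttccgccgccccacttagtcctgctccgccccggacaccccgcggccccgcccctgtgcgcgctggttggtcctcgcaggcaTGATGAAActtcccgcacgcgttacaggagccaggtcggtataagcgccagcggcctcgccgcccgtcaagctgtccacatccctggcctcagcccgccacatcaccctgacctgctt
CHAC1 (chr15:40953221-40953520, plus strand): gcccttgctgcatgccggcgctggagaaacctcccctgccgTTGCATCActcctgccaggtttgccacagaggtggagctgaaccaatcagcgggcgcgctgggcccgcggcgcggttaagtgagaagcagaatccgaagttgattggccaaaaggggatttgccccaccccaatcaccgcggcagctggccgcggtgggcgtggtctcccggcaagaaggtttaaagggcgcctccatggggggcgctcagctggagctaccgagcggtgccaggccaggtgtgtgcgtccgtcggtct
HSPA5 (chr9:125241294-125241593, minus strand): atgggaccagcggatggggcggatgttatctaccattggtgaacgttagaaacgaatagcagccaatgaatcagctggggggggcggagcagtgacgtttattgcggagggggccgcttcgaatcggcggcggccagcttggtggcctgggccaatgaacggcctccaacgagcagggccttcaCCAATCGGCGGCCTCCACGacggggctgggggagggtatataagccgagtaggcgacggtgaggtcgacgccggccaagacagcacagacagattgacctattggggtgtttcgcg
CRELD2 (chr22:49918384-49918683, plus strand): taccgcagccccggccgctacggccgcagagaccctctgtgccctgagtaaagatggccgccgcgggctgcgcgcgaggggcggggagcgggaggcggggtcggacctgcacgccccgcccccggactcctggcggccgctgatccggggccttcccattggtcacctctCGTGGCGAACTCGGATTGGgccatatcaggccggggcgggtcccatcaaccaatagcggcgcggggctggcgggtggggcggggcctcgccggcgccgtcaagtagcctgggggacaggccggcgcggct

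The ERSE matches are listed alone to show the 9 bases that differ between the fixed blocks, each read in the direction of the motif with both blocks in capitals. The 3 CANX windows with a match share 1 site, which counts once for each of them in the share of windows above. Another annotated CANX start has no match.
HSPA5: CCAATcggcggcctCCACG
CRELD2: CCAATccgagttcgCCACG
PDIA6: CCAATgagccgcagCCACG
HSP90B1 upstream site: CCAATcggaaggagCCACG
HSP90B1 downstream site: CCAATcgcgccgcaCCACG
CALR: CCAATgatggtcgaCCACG
CANX: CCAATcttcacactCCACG
XBP1: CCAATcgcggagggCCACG

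**Figure D1:**
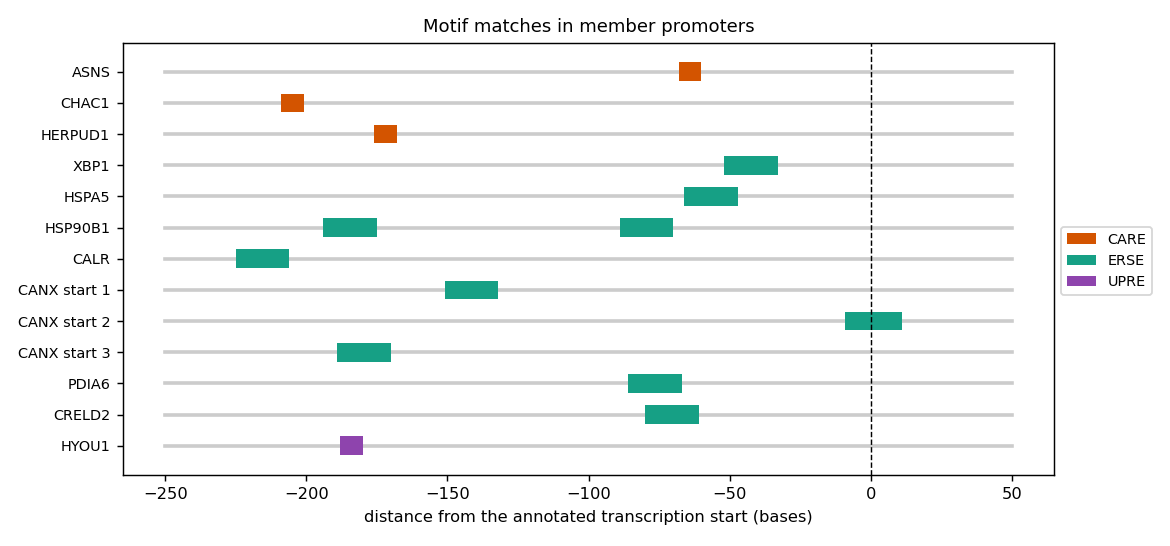
Position of each motif match in bases from the annotated transcription start (dashed line at 0) for the promoter windows of the 35 genes that hold a match. Grey lines are the windows and coloured bars the matches (CARE, ERSE or UPRE). ERSE matches lay before the start in 8 of the 9 windows and crossed it in 1 CANX window.

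The knockdowns and the scale of the arrays were checked before the genes of interest. MED23 read 109, 71.9 and 132 in si-Med23 oligos A, B and C, against 616, 529 and 541 in si-Ctrl, which is 18.2% of the control level (limma adjusted p = 0.00184). ELK1 read 133, 141 and 226 in si-Elk1, against 655, 783 and 627 in si-Ctrl, or 23.8% (adjusted p = 0.00684). These brightest sets gave log2 differences of -2.46 for MED23 and -2.07 for ELK1. Further probe sets that passed the filter gave -1.36 and -3.44 for MED23 and -1.08 for ELK1, so the depth of each knockdown is uncertain. All 7 epithelial and A549 markers examined lay above the filter level, a signal of 65.4, on every array, whereas the leukocyte marker PTPRC read at most 28.3. Of the other blood, endothelial and fibroblast markers measured, CD3E, HBB and PECAM1 lay above that level by their mean, and CD3E (log2 fold change -2.49, adjusted p = 0.0365) was lower in si-Med23 than in si-Elk1. The mean log2 signal of CD3E was 6.37, close to the filter level of 6.05. The summed signal of the 3 blood markers was 169 to 266 in si-Med23 and 343 to 499 in si-Elk1, against 140 to 437 in si-Ctrl. That of the 5 endothelial and fibroblast markers was 245 to 323 in si-Med23 and 359 to 606 in si-Elk1, against 268 to 439 in si-Ctrl. The summed signal of the 7 epithelial markers was 148937 to 192348 in si-Med23 and 126403 to 155022 in si-Elk1, against 113450 to 125962 in si-Ctrl, and 6 of them passed as higher for si-Med23 and 1 for si-Elk1. The part of these markers in the results was not tested. In bulk RNA fewer cells of a kind and less RNA per cell cannot be told apart. The bacterial poly-A spikes read a mean log2 signal of 9.08 to 9.31 in si-Med23 and 7.92 to 8.46 in si-Elk1, against 7.43 to 7.82 in si-Ctrl, so directions depend on the scaling. The 18S rRNA sets read 8.39 to 9.03 in si-Med23 and 7.79 to 8.24 in si-Elk1, against 7.58 to 8.11 in si-Ctrl. Scaling on these spikes would shift each log2 fold change by -1.61 (si-Med23) and -0.64 (si-Elk1). Scaling on the hybridization controls would shift it by -0.50 and -0.18, and centring on array medians by 0.23 and -0.13. All values below keep the deposited scaling, under which the median log2 fold change of all tested genes was 0.09 for si-Med23 and 0.05 for si-Elk1. The part of the spike and 18S differences in the results was not tested.

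Setting si-Med23 against si-Ctrl asks which of these transcripts depend on MED23. Under the deposited scaling, though not on poly-A spikes or hybridization controls, the amino acid and chaperone arms went opposite ways: 4 of 6 amino acid genes fell and 1 rose, while 9 of 15 ER chaperone genes rose and none fell. ATF4 itself, XBP1 and HSPA5 (the chaperone BiP) did not pass. In all, 11 of the 35 genes rose, 8 fell and 16 did not pass (limma, Benjamini-Hochberg over 12616 genes, threshold 0.05). Those counts are to be read beside the whole array, where 39.8% of genes passed, 20.3% higher and 19.5% lower. Since the genes were chosen with earlier results known, the counts are no test against these shares. The share of all tested genes whose arrays did not overlap is not given. Absence of overlap is therefore stated below only to describe single genes. The split of 11 higher and 8 lower became 17 and 5 once arrays were centred on their medians, 3 and 13 when scaled on hybridization controls and 0 and 33 on poly-A spikes. These scalings shift all genes alike, and the share of all tested genes called under them is not given here or below. Counts under other scalings, in any contrast or list, therefore show only how the calls depend on the scaling. Leaving out si-Ctrl replicate 1, 2 or 3 gave 10, 11 and 7 calls in place of 19. Of the 19 genes, 7 passed with any single array left out: ASNS, PSAT1, EIF2AK3, VLDLR, SDF2L1, PDIA3 and CRELD2.

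**Figure D2:**
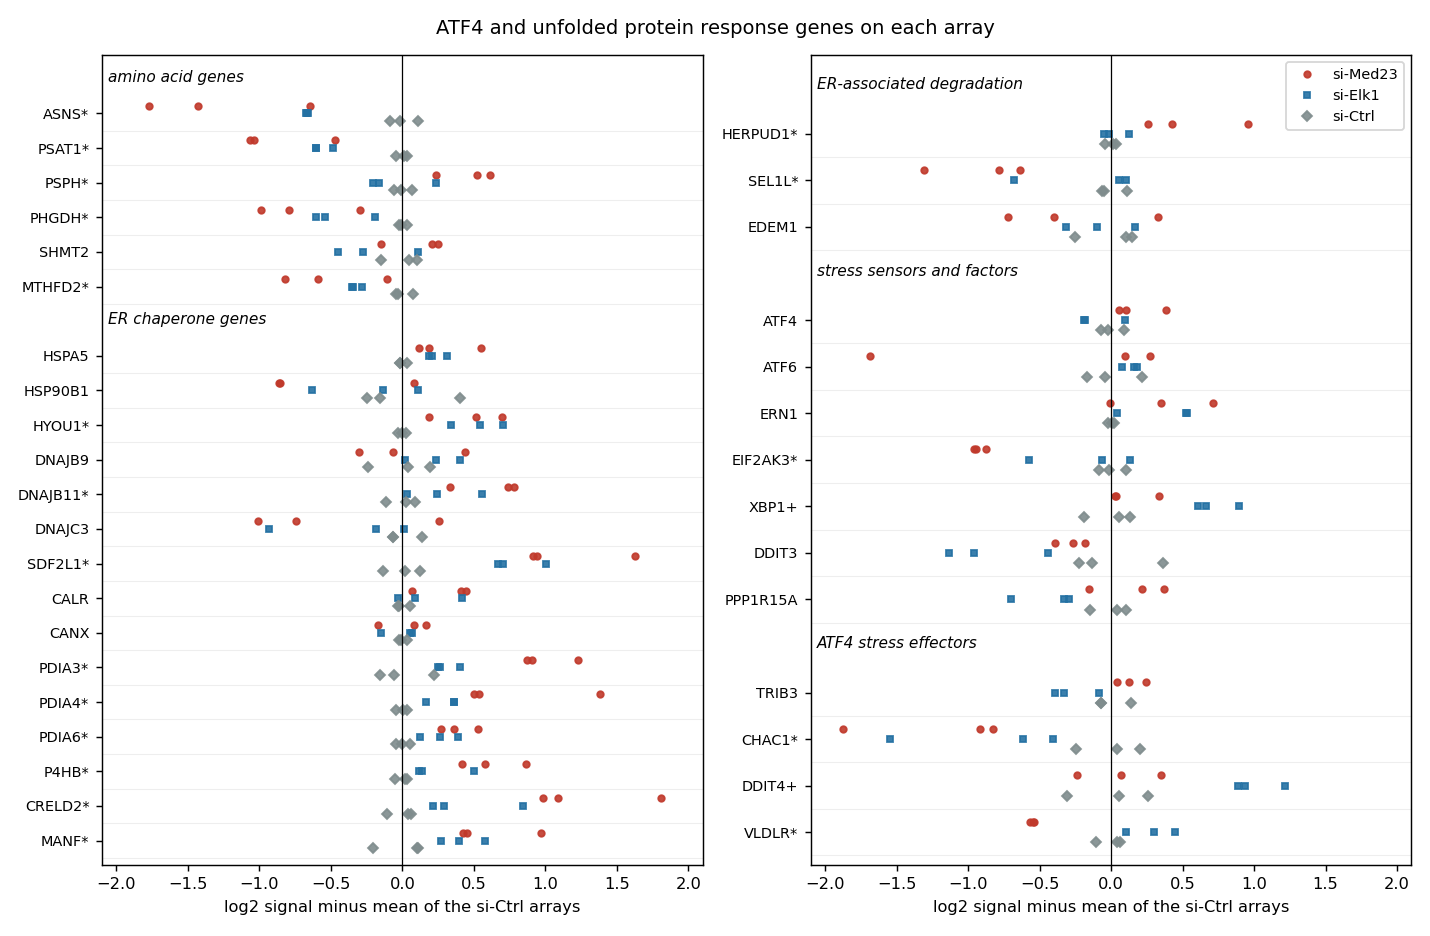
Log2 signal of each of the 35 genes on each array minus the mean of the si-Ctrl arrays, by role, with si-Med23 (circles), si-Elk1 (squares) and si-Ctrl (diamonds) as separate points. An asterisk marks genes that passed for si-Med23 against si-Ctrl and a plus sign those that passed for si-Elk1 against si-Ctrl. ASNS, PSAT1, PHGDH and MTHFD2 lie left of every control point on all 3 si-Med23 arrays, and SDF2L1, PDIA3 and CRELD2 lie right of them.

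ASNS, asparagine synthetase and a standard readout of ATF4 activity, gave signals of 4172, 2428 and 1912 with si-Med23 oligos A, B and C. It read 4111, 4092 and 4144 with the si-Elk1 oligos, against 6460, 7043 and 6148 in si-Ctrl. Every knockdown array lay below every control array, and the si-Med23 value with oligo A was close to the si-Elk1 values. The log2 fold change of ASNS in si-Med23 was -1.28 ± 0.25 (SE, n = 3 arrays per group), or 41.1% of the control level (adjusted p = 0.00584). The mean over both ASNS probe sets, the other with a mean log2 signal of 2.74, gave -0.83 (adjusted p = 0.0850). PSAT1, the transaminase of the serine pathway, read 11790, 7943 and 7810 in si-Med23 and 10740, 11684 and 10733 in si-Elk1, against 16479, 16686 and 15843 in si-Ctrl. It fell by 0.86 ± 0.17 on the log2 scale in si-Med23 (adjusted p = 0.00578), with no overlap between knockdown and control arrays.

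PHGDH, which catalyses the entry step of serine synthesis, read 1088, 771 and 672 in si-Med23 and 916, 875 and 1170 in si-Elk1, against 1312, 1367 and 1322 in si-Ctrl. Its log2 fold change in si-Med23 was -0.69 ± 0.19 (adjusted p = 0.0215). PSPH, the phosphatase that completes that pathway, went the other way, with 3203, 3407 and 2617 in si-Med23 and 1928, 1992 and 2625 in si-Elk1, against 2215, 2336 and 2135 in si-Ctrl. The si-Med23 arrays lay above all controls (log2 fold change 0.46 ± 0.16, adjusted p = 0.0474), so the 3 enzymes of serine synthesis did not move as a block. MTHFD2, a mitochondrial folate enzyme, read 13142, 9393 and 8012 in si-Med23 and 11161, 11624 and 11097 in si-Elk1, against 13858, 14915 and 13732 in si-Ctrl (si-Med23 log2 fold change -0.51 ± 0.17, adjusted p = 0.0463). SHMT2, the mitochondrial enzyme that makes glycine from serine, showed a log2 difference of 0.10 (adjusted p = 0.664) and overlapped the controls. The median log2 fold change of the 6 genes was -0.60, beside 0.09 for all genes tested, and it was negative under each scaling, from -0.37 with median centring to -2.21 with poly-A spikes. PSPH turned to -0.04 with hybridization control scaling and -1.15 with poly-A spikes. With median centring PHGDH (-0.46, adjusted p = 0.0859) and MTHFD2 (-0.28, adjusted p = 0.250) did not pass. PHGDH lost its call without any 1 si-Ctrl array or si-Med23 oligo B or C (adjusted p up to 0.0641). PSPH lost it without any 1 array other than si-Med23 oligo C or si-Elk1 oligo C (up to 0.136), and MTHFD2 without any 1 array other than si-Med23 oligo A (up to 0.127).

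Among the 15 ER chaperone genes, the median log2 fold change in si-Med23 was 0.47, which turned to -0.03 with hybridization control scaling and -1.14 with poly-A spikes. CRELD2, a secreted protein with disulfide isomerase activity that is induced by ER stress, read 3946, 4236 and 7005 in si-Med23 and 2438, 2310 and 3576 in si-Elk1, against 2052, 2086 and 1857 in si-Ctrl. Its log2 fold change in si-Med23 was 1.29 ± 0.24 (adjusted p = 0.00544), a 2.45-fold level, with oligo C highest. SDF2L1, a partner of the BiP complex, read 2120, 2080 and 3405 in si-Med23 and 1755, 1795 and 2215 in si-Elk1, against 1002, 1115 and 1199 in si-Ctrl. It rose by 1.16 ± 0.20 (adjusted p = 0.00431), and here too oligo C stood highest. PDIA3, the isomerase that works with calnexin and calreticulin on glycoproteins, read 10404, 10639 and 13343 in si-Med23 and 7520, 6771 and 6836 in si-Elk1, against 5095, 6620 and 5447 in si-Ctrl. Its rise of 1.00 ± 0.15 (adjusted p = 0.00266) was a 2.00-fold level.

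The other disulfide isomerases rose by less. PDIA4 read 3958, 3863 and 7103 in si-Med23, against 2744, 2796 and 2653 in si-Ctrl (log2 fold change 0.81 ± 0.22, adjusted p = 0.0210), with oligo C highest. P4HB, also a subunit of collagen prolyl hydroxylase, read 14587, 16310 and 19847 in si-Med23, against 11048, 11194 and 10522 in si-Ctrl (0.62 ± 0.16, adjusted p = 0.0147). PDIA6 read 16019, 15005 and 17980 in si-Med23, against 12066, 12911 and 12438 in si-Ctrl (0.39 ± 0.12, adjusted p = 0.0336). The si-Med23 and si-Ctrl arrays did not overlap for PDIA4, P4HB or PDIA6, which describes each gene alone. On the si-Elk1 arrays PDIA4 read 3067, 3512 and 3512, P4HB 12025, 11813 and 15433, and PDIA6 13595, 14989 and 16320.

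Among the chaperones and their partners, DNAJB11, a BiP co-chaperone, read 3710, 2796 and 3815 in si-Med23, against 2058, 2260 and 2359 in si-Ctrl (0.62 ± 0.18, adjusted p = 0.0233). MANF, a secreted factor that binds BiP, read 5242, 5348 and 7658 in si-Med23, against 3388, 4210 and 4191 in si-Ctrl (0.61 ± 0.18, adjusted p = 0.0258). HYOU1, a nucleotide exchange factor of BiP, read 2068, 1653 and 2348 in si-Med23, against 1449, 1478 and 1422 in si-Ctrl (0.47 ± 0.16, adjusted p = 0.0426). The si-Elk1 arrays gave 2629, 3273 and 2278 for DNAJB11, 5146, 4709 and 5834 for MANF and 1834, 2113 and 2364 for HYOU1. HSPA5, or BiP, read 19790, 20708 and 26745 in si-Med23 and 21076, 20723 and 22602 in si-Elk1, against 18035, 18626 and 18009 in si-Ctrl. Both knockdowns lay above the controls without overlap, but the log2 fold changes of 0.29 (95% interval -0.02 to 0.59, adjusted p = 0.121) and 0.24 (-0.07 to 0.54, adjusted p = 0.300) did not pass.

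The lectin chaperones CALR (0.31, adjusted p = 0.144) and CANX (0.03, adjusted p = 0.882) did not pass in si-Med23, nor did HSP90B1, the ER form of HSP90 (-0.54, adjusted p = 0.188), and the co-chaperones DNAJB9 (0.02, adjusted p = 0.938) and DNAJC3 (-0.50, adjusted p = 0.274). HSP90B1, DNAJB9 and DNAJC3 overlapped the controls in both knockdowns. Of the 6 chaperone genes with an ERSE match, CRELD2 and PDIA6 rose and HSPA5, HSP90B1, CALR and CANX did not pass. Without a match, HYOU1, DNAJB11, SDF2L1, PDIA4, P4HB and MANF rose, and DNAJB9 and DNAJC3 did not pass. PDIA3, which had no window, also rose. The part of the element in these changes was not tested. When scaled on hybridization controls 3 of the 15 chaperone genes rose and 3 fell. Of the 9 risen under the deposited scaling, HYOU1 turned to -0.03 and PDIA6 to -0.11 there, and DNAJB11, PDIA4, P4HB and MANF did not pass (0.12, 0.31, 0.12 and 0.12). With poly-A spikes all 9 risen chaperone genes turned negative, from -0.32 for CRELD2 to -1.22 for PDIA6. HYOU1 lost its call without any 1 si-Ctrl array, si-Med23 oligo A or C or si-Elk1 oligo B (adjusted p up to 0.121). DNAJB11 and PDIA6 lost theirs without any 1 si-Ctrl array or si-Med23 oligo A or C (up to 0.0742 and 0.101), and MANF lost it when si-Ctrl 1 or 3 or si-Med23 oligo C was left out (up to 0.0877). PDIA4 lost it without si-Ctrl replicate 1 or 3 (up to 0.0634) and P4HB without si-Ctrl replicate 3 (0.0526). Without si-Med23 oligo C the log2 fold change of PDIA4 was 0.52.

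The 3 genes of ER-associated degradation split. HERPUD1, a scaffold of the degradation complex, read 6583, 7384 and 10689 in si-Med23 and 5433, 5313 and 6001 in si-Elk1, against 5333, 5621 and 5534 in si-Ctrl. It rose by 0.55 ± 0.18 (adjusted p = 0.0366). It turned to -1.06 with poly-A spikes and did not pass with hybridization controls (0.05), quantile normalization (0.43) or only the 6 arrays compared (adjusted p = 0.0592). SEL1L, the partner of the ubiquitin ligase HRD1, read 590, 847 and 939 in si-Med23 and 1569, 1516 and 914 in si-Elk1, against 1400, 1413 and 1583 in si-Ctrl. Its log2 fold change in si-Med23 was -0.91 ± 0.24 (adjusted p = 0.0184). Another pair of SEL1L probe sets above the filter level gave 0.04 and 0.23, so its direction is uncertain. EDEM1, a mannosidase-like factor, showed a log2 difference of -0.27 (adjusted p = 0.445). HERPUD1 lost its call without any 1 array other than si-Med23 oligo A or si-Elk1 oligo C (adjusted p up to 0.0944), and its value was 0.34 without si-Med23 oligo C. SEL1L lost it when si-Ctrl 3 or the oligo A array of si-Med23 was dropped (up to 0.0617).

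Of the 7 sensors and factors, 1 fell in si-Med23 and none rose. EIF2AK3, the PERK gene, read 693, 726 and 687 in si-Med23 and 1280, 1460 and 896 in si-Elk1, against 1256, 1434 and 1319 in si-Ctrl. The 3 si-Med23 arrays agreed closely and lay below all others, with a log2 fold change of -0.93 ± 0.18, or 52.7% of the control level (adjusted p = 0.00557). The mean over both EIF2AK3 probe sets reversed it to 0.21, the other set having a mean log2 signal of 2.81, far below the filter level of 6.05. ATF4 read 13353, 10626 and 11015 in si-Med23 and 9019, 8958 and 10932 in si-Elk1, against 10067, 10917 and 9755 in si-Ctrl. Its log2 fold change in si-Med23 was 0.18 (95% interval -0.13 to 0.49, adjusted p = 0.317), and its arrays overlapped. ATF6 read 992, 287 and 1118 in si-Med23 and 1050, 1037 and 979 in si-Elk1, against 824, 1076 and 900 in si-Ctrl, so oligo B stood apart (log2 fold change -0.44, adjusted p = 0.450). Its 3 other probe sets above the filter level gave -1.18, -0.62 and -0.91. ERN1, the IRE1 gene, read 668, 523 and 859 in si-Med23 and 755, 760 and 541 in si-Elk1, against 526, 518 and 531 in si-Ctrl. Neither its value of 0.35 in si-Med23 (adjusted p = 0.193) nor that of 0.37 in si-Elk1 (adjusted p = 0.287) passed. DDIT3 and PPP1R15A, a subunit of the phosphatase that reverses eIF2alpha phosphorylation, had values of -0.28 and 0.14 in si-Med23 (adjusted p = 0.324 and 0.537).

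Of the 4 stress effectors of ATF4, CHAC1 and VLDLR fell in si-Med23. CHAC1, an enzyme that degrades glutathione, read 212, 102 and 199 in si-Med23 and 284, 128 and 246 in si-Elk1, against 318, 387 and 434 in si-Ctrl. All knockdown arrays lay below the controls and oligo B was lowest in both groups. Its log2 fold change in si-Med23 was -1.20 ± 0.36 (adjusted p = 0.0269), a call lost when si-Ctrl 2 or 3 or the oligo B array of si-Med23 was dropped (adjusted p up to 0.0839). VLDLR, a lipoprotein receptor induced through PERK and ATF4, read 538, 544 and 548 in si-Med23 and 856, 1086 and 980 in si-Elk1, against 833, 821 and 740 in si-Ctrl. Its fall in si-Med23 was -0.55 ± 0.12 on the log2 scale (adjusted p = 0.00929), and -0.32 with an adjusted p = 0.0652 after median centring. TRIB3, a pseudokinase that feeds back on ATF4, and DDIT4, an inhibitor of mTORC1, had values of 0.14 and 0.06 (adjusted p = 0.423 and 0.822).

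The amino acid and chaperone genes were set against each other within each array, where any factor that scales a whole array cancels. The measure is the mean log2 signal of the 6 amino acid genes minus that of the 15 chaperone genes. Signals of different probe sets cannot be compared, so only its change between arrays is given, relative to the si-Ctrl mean. It was -0.42, -0.74 and -1.55 with si-Med23 oligos A, B and C and -0.65, -0.70 and -0.49 with the si-Elk1 oligos, against 0.04, 0.06 and -0.10 in si-Ctrl. All 6 knockdown arrays lay below all 3 control arrays, and the si-Med23 oligos differed more among themselves than the si-Elk1 oligos did. The group difference was -0.90 for si-Med23 (SD within the group 0.58), -0.61 for si-Elk1 (SD 0.11) and, between the knockdowns, -0.29 for si-Med23 against si-Elk1. Both knockdowns were set against the same si-Ctrl arrays (SD 0.09). Since the genes were chosen with results known, no p-value is given. Without si-Med23 oligo C the values were -0.58 against si-Ctrl and 0.04 against si-Elk1. The amino acid mean changed by -0.13, -0.50 and -0.76 with si-Med23 oligos A, B and C, and the chaperone mean by 0.28, 0.24 and 0.79. The chaperone side was thus the larger with oligo A and, narrowly, with oligo C, and the amino acid side with oligo B.

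**Figure D3:**
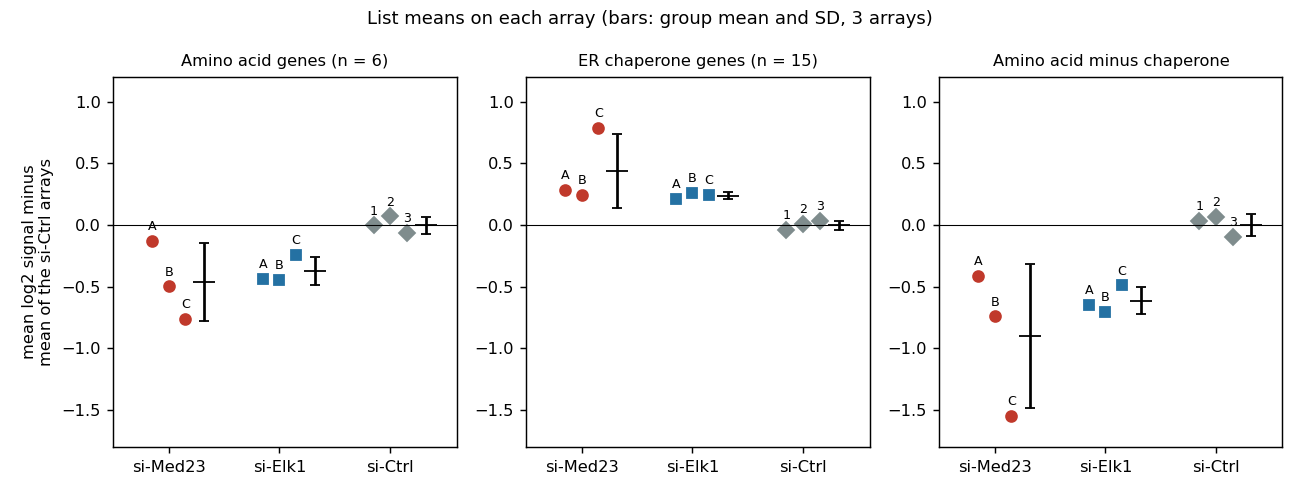
Mean log2 signal of the amino acid genes, of the ER chaperone genes and their difference, each minus the mean of the si-Ctrl arrays, for every array (oligos A, B and C, control replicates 1, 2 and 3), with the group mean and SD beside the points. The difference is below the controls on all 6 knockdown arrays, from -0.42 to -1.55 in si-Med23 and from -0.49 to -0.70 in si-Elk1.

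**Figure D4:**
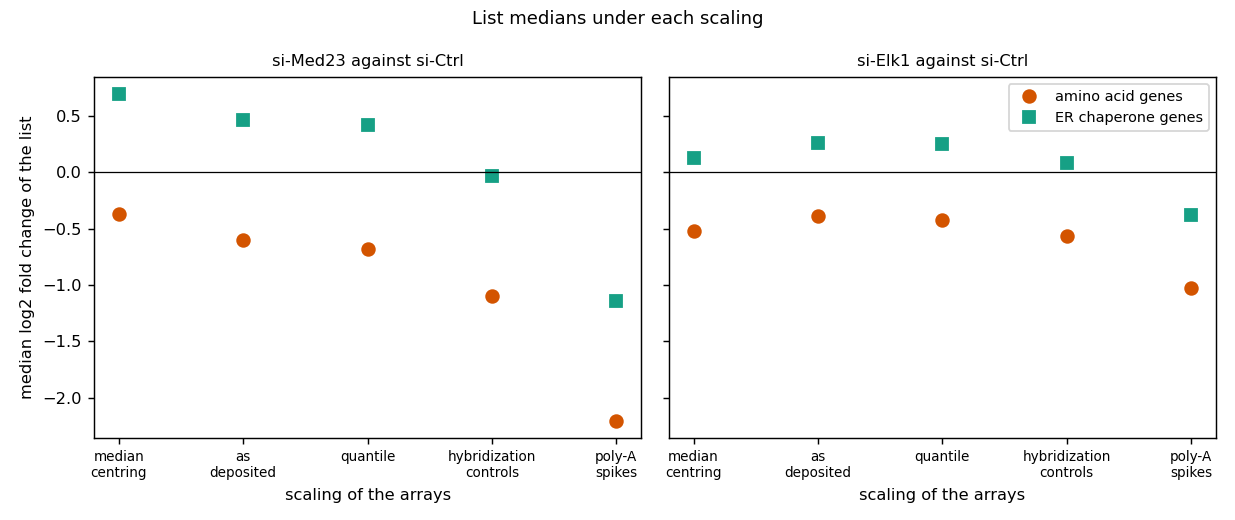
Median log2 fold change of the 6 amino acid genes (circles) and the 15 ER chaperone genes (squares) under 5 ways of scaling the arrays, for si-Med23 and si-Elk1 against si-Ctrl. As deposited the medians in si-Med23 are -0.60 and 0.47. The spike, control and median scalings shift all genes alike, so the gap between the lists is fixed there by construction and the plot shows where each median stands relative to 0.

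For si-Elk1 against si-Ctrl, which asks what ELK1 loss does to the same genes, 2 of the 35 rose, none fell and 33 did not pass. Over the whole array 4.26% of genes passed, 3.07% higher and 1.19% lower. The split of 2 higher and 0 lower was 1 and 1 when arrays were centred on their medians, 0 and 1 on hybridization controls and 0 and 12 on poly-A spikes. XBP1 read 4238, 4071 and 4981 in si-Elk1 and 2732, 2740 and 3377 in si-Med23, against 2938, 2778 and 2349 in si-Ctrl. It rose in si-Elk1 by 0.72 ± 0.15 (adjusted p = 0.0360), and every si-Elk1 array lay above every other array. DDIT4 read 11163, 10792 and 13576 in si-Elk1 and 7446, 4950 and 6139 in si-Med23, against 6965, 4719 and 6054 in si-Ctrl, a rise in si-Elk1 of 1.01 ± 0.20 (adjusted p = 0.0312). Both stayed positive under each scaling, with 0.08 and 0.37 under poly-A spikes, but neither passed with poly-A spikes or hybridization controls (0.54 and 0.83, adjusted p = 0.0736 and 0.0727), and DDIT4 also missed the threshold with median centring (0.88, adjusted p = 0.0501). Both calls were lost when any 1 si-Ctrl or si-Elk1 array was left out (adjusted p up to 0.123 for XBP1 and 0.0951 for DDIT4).

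None of the 6 amino acid genes passed in si-Elk1, where all 6 had negative values from -0.67 for ASNS to -0.04 for PSPH, with a median of -0.39, and 3 had an unadjusted p under 0.05 (limma). PSAT1 came nearest (-0.56, adjusted p = 0.0845). None of the 15 chaperone genes passed either, and 3 had an unadjusted p under 0.05. For both lists these counts stand beside 3162 of all 12616 genes tested with an unadjusted p under 0.05 (limma). The chaperone median was 0.26, positive except with poly-A spikes (-0.38), and SDF2L1 (0.79, adjusted p = 0.0633) and HYOU1 (0.53, adjusted p = 0.0861) came nearest. DDIT3, which encodes CHOP, read 343, 240 and 212 in si-Elk1 and 388, 412 and 356 in si-Med23, against 399, 424 and 600 in si-Ctrl. The si-Elk1 arrays lay below all others, with a log2 fold change of -0.84 (95% interval -1.33 to -0.35, adjusted p = 0.0614) that did not pass. ATF4 had a value of -0.09 (95% interval -0.41 to 0.22, adjusted p = 0.697). Of the 35 genes 0 were called without any 1 of the si-Ctrl or si-Elk1 arrays, and 4 without si-Med23 oligo A.

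Between the knockdowns, si-Med23 against si-Elk1, 3 of the 35 genes were higher and 4 lower, beside 21.7% of all genes tested, 9.54% higher and 12.2% lower. The split was 18 and 2 for arrays centred on their medians, 0 and 7 on hybridization controls and 0 and 26 on poly-A spikes. All 7 lay outside the amino acid arm, of which no gene passed. VLDLR was lower in si-Med23 than in si-Elk1 by -0.83 ± 0.12 on the log2 scale (adjusted p = 0.00640), as were DDIT4 (-0.95 ± 0.20, adjusted p = 0.0162), EIF2AK3 (-0.76 ± 0.18, adjusted p = 0.0221) and XBP1 (-0.59 ± 0.15, adjusted p = 0.0271). PDIA3 (0.69 ± 0.15, adjusted p = 0.0171) and CRELD2 (0.85 ± 0.24, adjusted p = 0.0410) were higher in si-Med23. PPP1R15A, with signals of 522, 582 and 403 in si-Med23 and 358, 276 and 366 in si-Elk1, was higher by 0.59 ± 0.18 (adjusted p = 0.0462). Those 3 turned negative with poly-A spikes, at -0.28, -0.13 and -0.39. VLDLR passed with any 1 array left out. DDIT4 did not pass without si-Elk1 oligo A (adjusted p = 0.0508), nor PDIA3 without si-Elk1 oligo B (0.0611). EIF2AK3 was lost without any 1 si-Med23 array or si-Elk1 oligo A or B (up to 0.0782) and XBP1 without oligo A or B of either knockdown (up to 0.0785). PPP1R15A was lost without any 1 array other than oligo C of either knockdown (up to 0.143), and CRELD2 without any other than si-Med23 oligo A or si-Elk1 oligo C (up to 0.129). The number of calls was 3 without si-Med23 oligo B, 2 without si-Elk1 oligo A or B and 11 without si-Elk1 oligo C.

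The counts of other genes of the same pathways in si-Med23 stand beside 20.3% higher and 19.5% lower, or 39.8% in all, over the whole array. Of 11 aminoacyl-tRNA synthetase genes, many of them ATF4 targets, 6 fell, none rose and 5 did not pass in si-Med23. Their log2 fold changes ran from -1.44 to 0.36 (median -0.47). The smallest adjusted p-values were those of TARS1 (-1.43 ± 0.19), LARS1 (-1.30 ± 0.18) and NARS1 (-0.88 ± 0.18), at 0.00228, 0.00239 and 0.00667. With si-Elk1 oligos A, B and C TARS1 read 4098, 4468 and 2876, LARS1 5630, 5318 and 3624 and NARS1 10074, 9872 and 6517. Of the 11 genes GARS1 alone fell in si-Elk1 (-0.60 ± 0.11, adjusted p = 0.0263). Of 12 partner and stress-induced factors, CEBPG, a bZIP partner of ATF4, fell in si-Med23 (-0.62 ± 0.11, adjusted p = 0.00456) and in si-Elk1 (-0.48 ± 0.11, with an adjusted p just under 0.05). The secreted factor STC2 fell in si-Med23 (-0.76 ± 0.26, adjusted p = 0.0460), NFE2L1 rose (0.40 ± 0.11, adjusted p = 0.0226) and the other 9 did not pass. ATF5, an ATF4 target and relative, was higher in si-Med23 than in si-Elk1 by 1.29 ± 0.26 (adjusted p = 0.0139). It read 505, 533 and 485 in si-Med23 and 131, 231 and 292 in si-Elk1, against 396, 419 and 460 in si-Ctrl. Most of that gap thus lay in the lower si-Elk1 values, and ATF5 passed against si-Ctrl in neither knockdown. Of 7 tested enzymes of serine, proline and one-carbon metabolism, CBS of transsulfuration fell (-0.73 ± 0.15, adjusted p = 0.00787) and the proline enzyme ALDH18A1 rose (0.63 ± 0.15, adjusted p = 0.0128) in si-Med23. CTH, which follows CBS in that pathway, rose in si-Elk1 (1.31 ± 0.23, adjusted p = 0.0212).

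On the ER side the other genes went both ways in si-Med23, with 50% to 53.8% of the folding, degradation, translocation and eIF2 lists called, beside 39.8% of all genes. Of 13 other folding enzymes 4 rose and 3 fell (median 0.13), including the ER reductase DNAJC10 (-1.84 ± 0.29, adjusted p = 0.00317), the prolyl isomerase PPIB (0.81 ± 0.12, adjusted p = 0.00264) and the oxidase ERO1A (-0.67 ± 0.14, adjusted p = 0.00712). Of 10 other degradation genes 3 rose and 2 fell (median 0.29), with EDEM3 lower (-2.24 ± 0.36, adjusted p = 0.00318) and DERL2 higher (0.69 ± 0.13, adjusted p = 0.00596). Of 13 translocation genes 3 rose and 4 fell (median 0.16), the translocon subunit SSR4 rising by 0.88 ± 0.13 (adjusted p = 0.00254) and SEC62 changing by -1.53 ± 0.25 (adjusted p = 0.00357). Of 10 genes for eIF2alpha kinases, its phosphatase and eIF2B, 3 rose and 2 fell, with EIF2AK2, the kinase PKR, at -1.35 ± 0.29 (adjusted p = 0.00849). WFS1, an ER membrane protein that restrains ATF6, rose by 0.97 ± 0.14 (adjusted p = 0.00245), as 1 of 5 tested regulators of the sensors, of which 3 rose and 1 fell. In si-Elk1 none of these ER and eIF2 genes passed, and oligo C stood below oligos A and B in several. EIF2AK2 read 1534, 1567 and 707 with si-Elk1 oligos A, B and C, against 1479, 1159 and 1592 in si-Ctrl. DNAJC10 read 2287, 2069 and 993 in si-Elk1, against 2312, 2381 and 2856 in si-Ctrl. EIF2AK3 and SEL1L, above, showed the same order.

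The length of the gene differed between risen and fallen genes. The RefSeq gene span (GRCh38.p14) had a median of 15.1 kb over the 11 risen and 35.6 kb over the 8 fallen genes of the 35 in si-Med23, and 6.25 kb over the 16 that did not pass. In the other folding, degradation and translocation genes it was 17.8 kb over 10 risen, 55.6 kb over 9 fallen and 29.1 kb over 17 other genes. Over all genes tested it was 18.5 kb over 2561 risen, 53.2 kb over 2462 fallen and 26.3 kb over the other genes, so the uncalled genes lay between the others there but not among the 35. CHAC1 was a short gene that fell, and PSPH and PDIA6 were long genes that rose. In si-Elk1 the medians over all genes were 24.2 kb for the 387 risen and 45.1 kb for the 150 fallen genes. These are descriptions, and the part of gene length in the results was not tested.

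Other probe sets of the same genes gave a check on direction. Of 35 further probe sets above the filter level, for 19 of the genes, 27 had the same sign as the one used in si-Med23 against si-Ctrl and 8 the opposite sign. PSAT1 gave -1.11 and MTHFD2 -1.49 with their other sets, larger falls than with the brightest. The 3 further PDIA6 sets gave 0.39 to 0.65. Further sets of PDIA3 (0.27 and 0.55), PDIA4 (0.56) and P4HB (0.40 and 0.29) gave smaller rises than the brightest. In si-Med23 against si-Elk1 the further PDIA3 sets gave -0.03 and 0.44, beside 0.69 with the brightest. CALR differed, with 1.76 and -0.21 beside the 0.31 of the brightest set, so its level of change is uncertain.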

How the data were processed

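Total RNA of 9 A549 samples was labelled and hybridised to Affymetrix arrays of 54675 probe sets. The deposited values are intensity signals on a linear scale, 1 per probe set and array, with a 2% trimmed mean near 500 on every array. The submitters' processing notes name MAS5 and RMA without saying which made these values, and the sources used here do not give a genome build. Signals were kept as deposited and analysed as log2(signal + 1). Outside the 62 control sets, 41091 probe sets had 1 gene symbol and 1801 several. No gene was named for 11777 sets, most control sets among them. Each gene was read from its brightest probe set by mean, and genes at or above the median probe set were tested (12616 of 19775).

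The 3 groups of 3 arrays entered 1 linear model without a block (lmFit and eBayes of limma 3.58.1, R 4.3.3), and each of 3 contrasts was adjusted by Benjamini-Hochberg over all tested genes. Errors of fold changes are standard errors of this fit, whose precision is limited by the number of arrays. The procedure was tested on simulated data. All 35 genes were eligible to be named. The genes, the companion lists and the marker lists were chosen with earlier results of these data known. In each companion list and contrast up to 3 genes are named, those with the smallest adjusted p among genes that passed in a contrast. Alternatives covered the filter, probe set choice, pseudocount, scaling, replicate block, array weights, thresholds and leaving out each array. Promoters came from RefSeq (GRCh38.p14).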

Additional observations from a re-analysis of the deposited data

How the results depend on the processing

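The number of the 35 genes called in si-Med23 against si-Ctrl (19) was 9 with no filter on dim probe sets, 11 of 26 without _x_at and _s_at probe sets, 33 with poly-A spike scaling and 7 at a threshold of 0.01. It ranged from 7 to 18 with 1 array left out. In si-Elk1 against si-Ctrl (2) it was 0 with no filter (limma; with the filter, 3162 of all tested genes had an unadjusted p under 0.05), 6 under a stricter filter, 1 from the mean of all probe sets, 1 without _x_at and _s_at probe sets, 12 with poly-A spikes, 1 with hybridization controls, 4 with signals raised to the filter level, 4 with only the 6 arrays compared, 8 with array weights, and 0 and 6 at thresholds of 0.01 and 0.1. It ranged from 0 to 4 with 1 array left out. In si-Med23 against si-Elk1 (7) it was 1 with no filter, 11 under the stricter filter, 4 from the mean of all probe sets, 20 with median centring, 26 with poly-A spikes, 3 with only the 6 arrays compared, 14 with array weights, and 1 and 12 at thresholds of 0.01 and 0.1. It ranged from 2 to 11 with 1 array left out. The amino acid minus chaperone difference stayed negative for each knockdown against si-Ctrl under every alternative run. In si-Elk1 it was -0.49 without _x_at and _s_at probe sets. With 1 array left out it ranged from -1.14 to -0.58 for si-Med23, from -0.68 to -0.57 for si-Elk1 and from -0.53 to 0.037 for si-Med23 against si-Elk1, positive without si-Med23 oligo C. With poly-A spikes the log2 fold changes in si-Med23 against si-Ctrl reversed for PSPH (-1.15), HYOU1 (-1.14), DNAJB11 (-0.99), SDF2L1 (-0.45), PDIA3 (-0.61), PDIA4 (-0.81), PDIA6 (-1.22), P4HB (-0.99), CRELD2 (-0.32), MANF (-0.996) and HERPUD1 (-1.06). Against si-Elk1 they reversed for PPP1R15A (-0.39), PDIA3 (-0.28) and CRELD2 (-0.13). Hybridization controls reversed PSPH (-0.041), HYOU1 (-0.032) and PDIA6 (-0.11). The mean of all probe sets reversed EIF2AK3 against si-Ctrl (0.21) and si-Elk1 (0.16) and SEL1L against si-Ctrl (0.074). Of 648 single-gene values under alternatives, over 30 results, 471 kept their direction and side of the threshold, 157 kept the direction but did not pass and 20 reversed. The causes were not tested. With the replicate number as a block the counts were 14, 1 and 4. Same-numbered arrays deviated from their group means with correlations from -0.18 to 0.05, so the numbers are not taken to pair the arrays. Genes below the filter level were not tested.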
